A study of Mus musculus with 4 samples.

Results

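Type I interferon-induced genes are read here in single immune cells of mice that carried BeCon tumours and received YKL-05-099 or its vehicle. The members were named as a list of 38 genes that type I interferon is known to induce, and 37 of them are among the 32285 genes of the matrices. Mx2 was not analysed here. The UMIs (unique molecular identifiers, each a counted transcript) of each member were summed over all cells of one class in one mouse and tissue, so that the mouse is the replicate throughout.

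The study sorted viable cells positive for CD45 and for MHC class I from B6 mice bearing BeCon, a tumour that the series title places in ovarian cancer. The compound YKL-05-099 blocks the salt-inducible kinases (SIK). The cells of each mouse and tissue carried their own hashtag antibody and were pooled into 2 droplet libraries, one of ascites and one of spleen with blood. Both arms carried the tumour, and both were pooled in each library, so RNA free in the suspension is shared between the arms. The ascites groups were 4 vehicle mice and 4 treated mice, numbered 1 to 4 in each arm. Spleen and blood came from vehicle mice 1 to 3 and from treated mice 2 to 4. Age, sex, dose and duration are not in the labels used here.

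Type I interferons are cytokines, chiefly the interferon alpha family and interferon beta, that signal through the receptor chains IFNAR1 and IFNAR2 and the kinases JAK1 and TYK2. The kinases switch on a transcription factor complex, of which STAT2 and IRF9 are parts, that binds interferon-stimulated response elements in the promoters of the induced genes. The induced proteins sense viral RNA, block steps of virus entry and replication, attach the ubiquitin-like protein ISG15 to others, and amplify the response through IRF7. Macrophages and dendritic cells are known as strong producers and responders, and many of the same genes also respond to interferon gamma.

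The promoters of the induced genes are shown because the element bound by that complex links the members by sequence, which the list itself did not use. The window was 300 bases, from 250 before to 50 after the annotated start, in the RefSeq table for GRCm38.p6, which holds 28 of the 37 members. The motif searched was GAAA, any 2 bases, then GAAA again, on either strand (TTTC, any 2 bases, TTTC where it lies on the other strand), and matches may overlap. It was found in 15 of 33 member promoters, 45.5%, and in 1131 of 32851 promoters of that length in the whole table, 3.44%. By gene, 14 of 28 members held it. In the sequences, matched bases are in capitals, each sequence runs 5′ to 3′ on the strand of its gene, and a match is a string of letters, not a shown binding site. Isg15 encodes the ubiquitin-like modifier (chr4:156200769-156201068, minus strand, 3 overlapping matches). Rsad2 encodes viperin, which makes a nucleotide that stops viral RNA synthesis (chr12:26456403-26456702, minus strand, 1 match). Ifitm3 encodes a membrane protein that hinders fusion of virus with the endosome (chr7:141010695-141010994, minus strand, 2 matches). Bst2 encodes tetherin, which holds budding virus at the cell surface (chr8:71537423-71537722, minus strand, 2 matches). Trim25, a ubiquitin ligase acting on the RNA sensor RIG-I, has no match in its window (chr11:88999153-88999452, plus strand).
Isg15: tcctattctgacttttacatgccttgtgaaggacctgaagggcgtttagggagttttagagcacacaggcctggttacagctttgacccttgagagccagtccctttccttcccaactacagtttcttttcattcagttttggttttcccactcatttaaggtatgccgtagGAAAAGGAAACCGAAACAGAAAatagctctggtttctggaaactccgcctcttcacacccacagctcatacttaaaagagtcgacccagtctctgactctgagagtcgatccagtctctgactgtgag
Rsad2: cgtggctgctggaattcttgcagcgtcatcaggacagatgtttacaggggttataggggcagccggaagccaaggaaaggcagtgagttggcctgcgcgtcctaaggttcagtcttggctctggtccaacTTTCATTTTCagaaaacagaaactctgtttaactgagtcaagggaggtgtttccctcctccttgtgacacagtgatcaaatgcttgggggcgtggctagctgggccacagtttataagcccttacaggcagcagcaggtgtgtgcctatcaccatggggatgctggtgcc
Ifitm3: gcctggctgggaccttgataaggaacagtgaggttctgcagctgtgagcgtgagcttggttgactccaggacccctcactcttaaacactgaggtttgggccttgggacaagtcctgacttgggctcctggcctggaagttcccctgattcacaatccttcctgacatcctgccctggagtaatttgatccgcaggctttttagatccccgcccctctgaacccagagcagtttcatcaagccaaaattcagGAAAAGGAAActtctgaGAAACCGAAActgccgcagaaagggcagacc
Bst2: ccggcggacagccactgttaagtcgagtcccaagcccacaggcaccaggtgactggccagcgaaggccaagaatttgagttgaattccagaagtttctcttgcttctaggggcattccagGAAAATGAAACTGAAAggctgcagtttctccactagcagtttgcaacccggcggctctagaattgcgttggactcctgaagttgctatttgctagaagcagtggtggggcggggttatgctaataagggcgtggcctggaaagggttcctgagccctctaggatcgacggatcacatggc
Trim25: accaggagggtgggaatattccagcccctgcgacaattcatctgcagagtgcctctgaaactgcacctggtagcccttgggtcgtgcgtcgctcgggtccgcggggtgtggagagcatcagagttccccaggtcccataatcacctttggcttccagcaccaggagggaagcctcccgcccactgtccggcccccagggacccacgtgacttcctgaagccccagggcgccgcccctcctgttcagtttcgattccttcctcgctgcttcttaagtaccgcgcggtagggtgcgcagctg

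Among the other members with an entry, Oasl1, Oasl2, Xaf1, Samd9l, Herc6, Cmpk2, Sp100, Ifi35, Lgals3bp, Dtx3l, Ifi44, Isg20 and Ifit2 had no match in the window. Ifi27, Ifi27l2a, Dhx58, Oas2, Rtp4, Zbp1, Usp18, Parp9 and Parp14 have no entry in the table. Several members are neighbours in the genome (GRCm38, GENCODE M21). Ifi27 (chr12:103434211-103440239, plus strand) lies beside Ifi27l2a (chr12:103442167-103443680, minus strand). On the same chromosome, Rsad2 (chr12:26442746-26456452, minus strand) lies beside Cmpk2 (chr12:26469204-26479837, plus strand). Paralogs such as Ifit3 and Ifit3b, or Ifi27 and Ifi27l2a, share sequence, so how reads were divided between them is uncertain.

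The ascites library held 134034611 UMIs over 13688 barcodes and the library of spleen and blood 92064806 UMIs over 14792. Filtering and hashtag assignment left 6281 ascites cells and 6695 cells of spleen and blood with at least 1000 UMIs, and 5896 and 6537 of them fell in a marker-defined class. Each mouse gave 648 to 1069 assigned cells in ascites, 579 to 801 in spleen and 370 to 509 in blood. A Ptprc (CD45) UMI was seen in 93.0% of ascites cells, 94.1% of spleen cells and 94.9% of blood cells. The 2 libraries shared 10 barcodes among the assigned cells. Classes were gated on marker transcripts, with at least 20 cells per mouse for a test. The median macrophage held UMIs of 7 of the 8 macrophage markers, the median B cell 5 of 6, T cell 5 of 6, classical monocyte 5 of 7 and cDC1 (conventional dendritic cell type 1) 6 of 6.

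Members that rose after treatment numbered 19 of 34 tested in ascites macrophages, where 10.4% of all genes tested rose, and 12 of 27 in spleen B cells, where 2.57% did. In the other classes of ascites and spleen that were tested, 0 to 6 rose, and in blood 1 did, in B cells. In ascites macrophages the 37 members together took 3108 ± 167 CPM (their UMIs scaled to a total of 1e+06 UMIs in the class; SD, n = 4) in vehicle mice and 5995 ± 804 (n = 4) in treated mice, a ratio of 1.93. By mouse these sums were 3121, 3264, 3173 and 2873 in vehicle mice 1 to 4 and 7178, 5527, 5822 and 5455 in treated mice 1 to 4. The arms did not overlap, and treated mouse 1 was the highest. Ifitm3, Ifi27l2a and Bst2 made up 71.0% of the members' UMIs in this class, and without them the sum was 1006 in vehicle and 1512 in treated mice, a ratio of 1.504. Sums in the other classes went from 3312 ± 370 (n = 2) to 8041 ± 1619 (n = 4) in classical monocytes, from 2682 ± 204 to 4459 ± 655 in cDC2 (conventional dendritic cells type 2, n = 4 and 4), and from 1188 ± 63.1 to 1783 ± 162 in ascites B cells (n = 4 and 4). Blood B cells had 1697 ± 96.0 in vehicle and 1817 ± 76.9 in treated mice (n = 3 and 3).

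**Figure D1:**
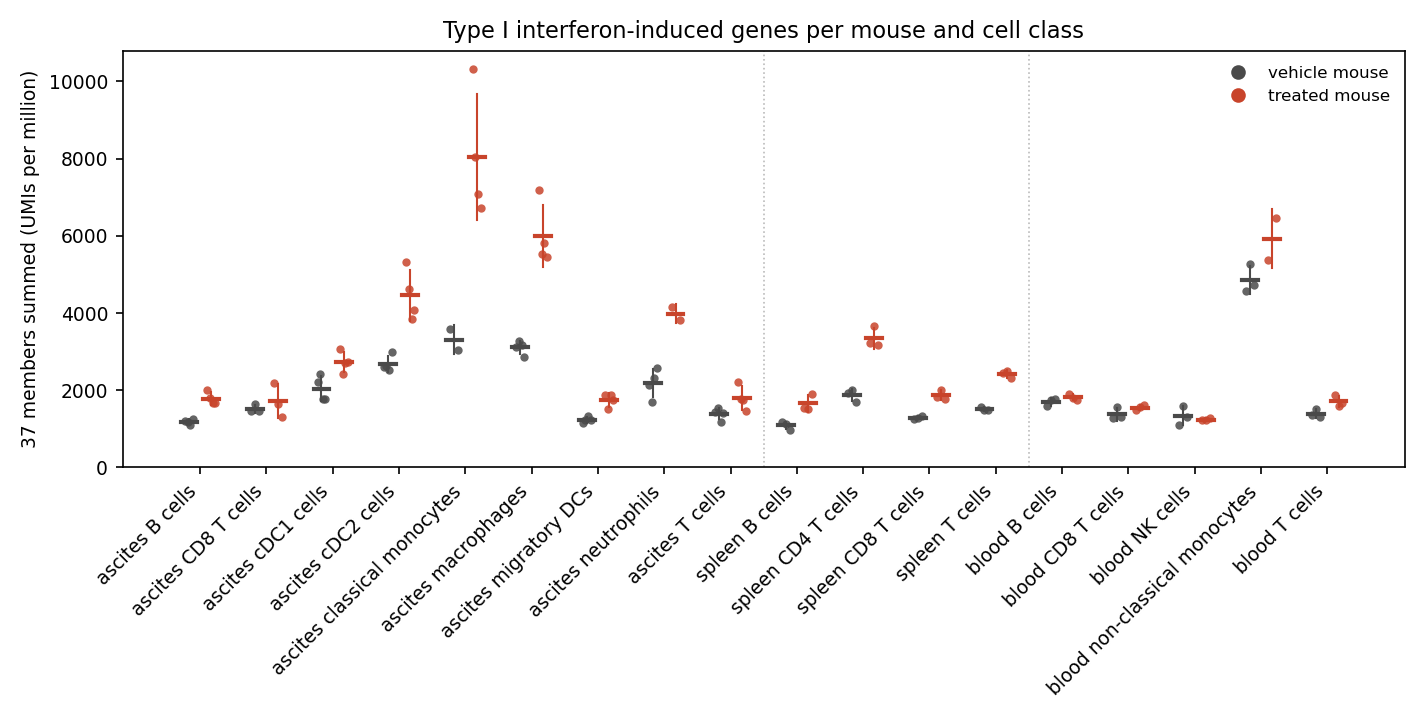
Summed CPM of the 37 members (vertical axis, UMIs scaled to the total of the class) in each mouse (points), with the mean and SD of each arm, for every class and tissue tested. In ascites macrophages the 4 treated mice lie between 5455 and 7178 and the 4 vehicle mice between 2873 and 3264, whereas in blood B cells the arms overlap between 1587 and 1902.

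In ascites macrophages the responding members came from every role, and 1 member went the other way. Of 34 members with enough counts to be tested, 19 rose and 1 fell, where 10.4% of all 10056 genes tested rose and 11% fell (edgeR's quasi-likelihood test with Benjamini-Hochberg adjustment over all genes, threshold 0.05). The median log2 change was 0.81 over the members tested and 0.01 over all genes tested. For 17 members every treated mouse was above every vehicle mouse, and for 1 every treated mouse was below. How many of all genes tested separated in this way is not given here, so these counts describe the members only. Macrophages differed between arms in more than these genes: UMIs per cell averaged 17579 in vehicle and 13123 in treated mice. The summed macrophage markers were 26898 to 33021 CPM in vehicle mice and 14554 to 19615 in treated mice, with all 8 markers detected in every mouse. The classical monocyte markers were 657 to 1467 and 697 to 992, all 7 detected. Neutrophil markers (103 to 141 in vehicle, 40.3 to 92.4 in treated mice) and ILC markers (12.1 to 18.9 and 42.4 to 64.1) also separated the arms. With every cell thinned to 2000 UMIs, 9 members rose and 1 fell, and the share of all genes called in that fit is not given here. The part of these marker differences in the members' changes was not tested.

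Per-gene levels below are CPM within the class, scaled by edgeR's TMM factors, in the order of mouse number. Among sensors and effectors against viral RNA, 6 of 12 tested members rose in macrophages and none fell. Zbp1, a sensor of nucleic acids in the Z form that can trigger necroptosis, was at 31.9, 34.1, 37.6 and 31.2 in vehicle mice and 103, 63.4, 68.6 and 54.8 in treated mice (log2 change 1.12, SE 0.163, adjusted p = 0.000358). All treated mice were above all vehicle mice. Oasl1, an OAS-like protein known to restrain translation of Irf7, was at 11.1, 12.9, 10.6 and 6.20 in vehicle and 49.4, 27.3, 48.6 and 38.7 in treated mice (log2 change 1.98, SE 0.238, adjusted p = 0.000169). Here too the arms were separate. Oas3, an enzyme making the oligoadenylates that switch on RNase L, went from 4.35, 4.66, 5.72 and 5.13 to 23.7, 7.29, 12.2 and 8.59 (1.37, SE 0.328, adjusted p = 0.00948), without overlap. Oasl2, another OAS-like protein, went from 22.7, 26.2, 22.1 and 15 to 77.8, 32.1, 37.8 and 38.7 (1.11, SE 0.303, adjusted p = 0.0325). Treated mouse 1 stood far above the other treated mice for Oasl2. Ifit1, which binds viral RNA lacking cap methylation, and Oas1a rose by less clear margins, with log2 changes of 1.01 (SE 0.312, adjusted p = 0.0305) and 0.50 (SE 0.156, adjusted p = 0.0314), and their arms overlapped. Leaving out 1 mouse ended some of these calls: Oasl2 without vehicle mouse 1, 3 or 4 or treated mouse 4 (adjusted p 0.0557 to 0.0685), Ifit1 without vehicle mouse 1, 3 or 4 or treated mouse 1 or 3 (0.0534 to 0.122), and Oas1a without vehicle mouse 1, 2 or 4 or treated mouse 1 or 3 (0.0503 to 0.0924).

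The cytosolic RNA helicases did not pass the test in macrophages. Ifih1 (MDA5) had a log2 difference of 0.38 (adjusted p = 0.293), Ddx58 (RIG-I) 0.46 (adjusted p = 0.085) and Dhx58 (LGP2) 0.35 (adjusted p = 0.198), all by edgeR. For each of the 3 the arms overlapped. Eif2ak2, the kinase PKR, which halts translation on double-stranded RNA, was at 0.32 (adjusted p = 0.116). Ifit2 was at 1.48 (SE 0.626, adjusted p = 0.13), with treated mouse 1 at 18.6 and the other treated mice at 2.97 to 5.21, against 1.07 to 4.12 in vehicle mice. Ifit3, with 42 UMIs in vehicle and 32 in treated mice, and Ifit3b, with 5 and 3, had too few counts for the test.

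The other antiviral effectors held the most abundant members. Ifitm3 was at 1424, 1373, 1391 and 1332 in vehicle macrophages and 3088, 2658, 2730 and 2235 in treated ones (log2 change 0.96, SE 0.0861, adjusted p = 3.07e-06). Ifi27l2a, a small hydrophobic membrane protein, went from 514, 605, 533 and 451 to 1876, 1195, 1504 and 1640 (1.56, SE 0.133, adjusted p = 1.61e-05). In both genes every treated mouse exceeded every vehicle mouse. Bst2 went from 187, 180, 212 and 168 to 333, 301, 285 and 356 (0.77, SE 0.0997, adjusted p = 8.92e-05). Rsad2 was at 16.9, 21.5, 16.0 and 8.12 in vehicle and 106, 44.0, 76.9 and 44.0 in treated mice, the steepest change among called members at 2.12 (SE 0.388, adjusted p = 0.0086). Neither gene's arms overlapped. Rtp4, a receptor transporter protein with antiviral effects, went from 27.3, 37.6, 35.3 and 24.1 to 88.0, 48.1, 53.8 and 50.5 (0.95, SE 0.212, adjusted p = 0.00949).

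Ifi27 was the member that fell in macrophages, next door to Ifi27l2a in the genome. Its levels were 59.0, 56.5, 59.5 and 91.0 in vehicle mice and 31.7, 46.4, 47.3 and 23.6 in treated mice (log2 change -0.76, SE 0.219, adjusted p = 0.0326). The arms did not overlap, but the call was lost without treated mouse 1 (-0.67, adjusted p = 0.0909), without treated mouse 4 (-0.65, adjusted p = 0.0517), and outside the cluster that held most vehicle macrophages. Samd9l, an antiviral protein that curbs translation, had a log2 difference of -0.07 (adjusted p = 0.797), and Cmpk2, a mitochondrial nucleotide kinase, one of 0.88 (adjusted p = 0.0543) with no overlap between arms.

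Among ISG15 and the ubiquitin or ADP-ribose enzymes, 5 of 8 rose in macrophages. Trim25 was at 73.0, 82.3, 75.8 and 67.7 in vehicle and 172, 163, 160 and 170 in treated mice (log2 change 1.15, SE 0.09, adjusted p = 1.09e-06). Parp14, a transferase of single ADP-ribose units, went from 45.4, 39.1, 37.9 and 40.2 to 88.5, 67.0, 58.2 and 73.0 (0.81, SE 0.127, adjusted p = 0.000398). Treated mice lay above vehicle mice throughout for both. Usp18, which removes ISG15 from proteins and damps the receptor, went from 5.56, 4.66, 5.72 and 2.14 to 27.5, 9.18, 15.2 and 14.0 (1.82, SE 0.368, adjusted p = 0.00496). Herc6, the ISG15 ligase of mice, went from 11.6, 10.0, 14.5 and 11.3 to 29.3, 15.4, 25.2 and 19.3 (0.89, SE 0.203, adjusted p = 0.00578). Neither gene overlapped between arms. Isg15 itself was at 24.4, 40.9, 23.9 and 24.8 in vehicle and 86.1, 43.5, 63.0 and 34.4 in treated mice (1.02, SE 0.298, adjusted p = 0.0438), with treated mouse 4 below vehicle mouse 2. Its call was lost without vehicle mouse 1, 3 or 4 or treated mouse 1 or 3 (adjusted p 0.0638 to 0.105). Trim30a (0.13, adjusted p = 0.585), Dtx3l (-0.10, adjusted p = 0.677) and Parp9 (0.10, adjusted p = 0.738) did not pass. Parp9 and Dtx3l form a complex, and they lie beside Parp14 on chromosome 16.

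Of the nuclear, death-linked and other members, 3 of 5 rose in macrophages. Phf11b went from 34.8, 46.6, 34.5 and 39.3 to 75.9, 60.5, 62.5 and 62.3 (log2 change 0.75, SE 0.125, adjusted p = 0.000659). Xaf1, an antagonist of the caspase inhibitor XIAP, went from 18.4, 22.6, 17.6 and 19.9 to 56.3, 27.3, 41.7 and 25.8 (0.96, SE 0.216, adjusted p = 0.00792). Ifi35, a protein with leucine zipper character, went from 26.1, 25.1, 28.9 and 29.1 to 54.0, 35.9, 39.5 and 44.0 (0.65, SE 0.139, adjusted p = 0.00381). The arms were separate for all 3 genes. Sp100, a component of nuclear bodies, was at 0.45 (adjusted p = 0.09), and Lgals3bp, a secreted glycoprotein, at 0.18 (adjusted p = 0.321), and both overlapped between arms.

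**Figure D2:**
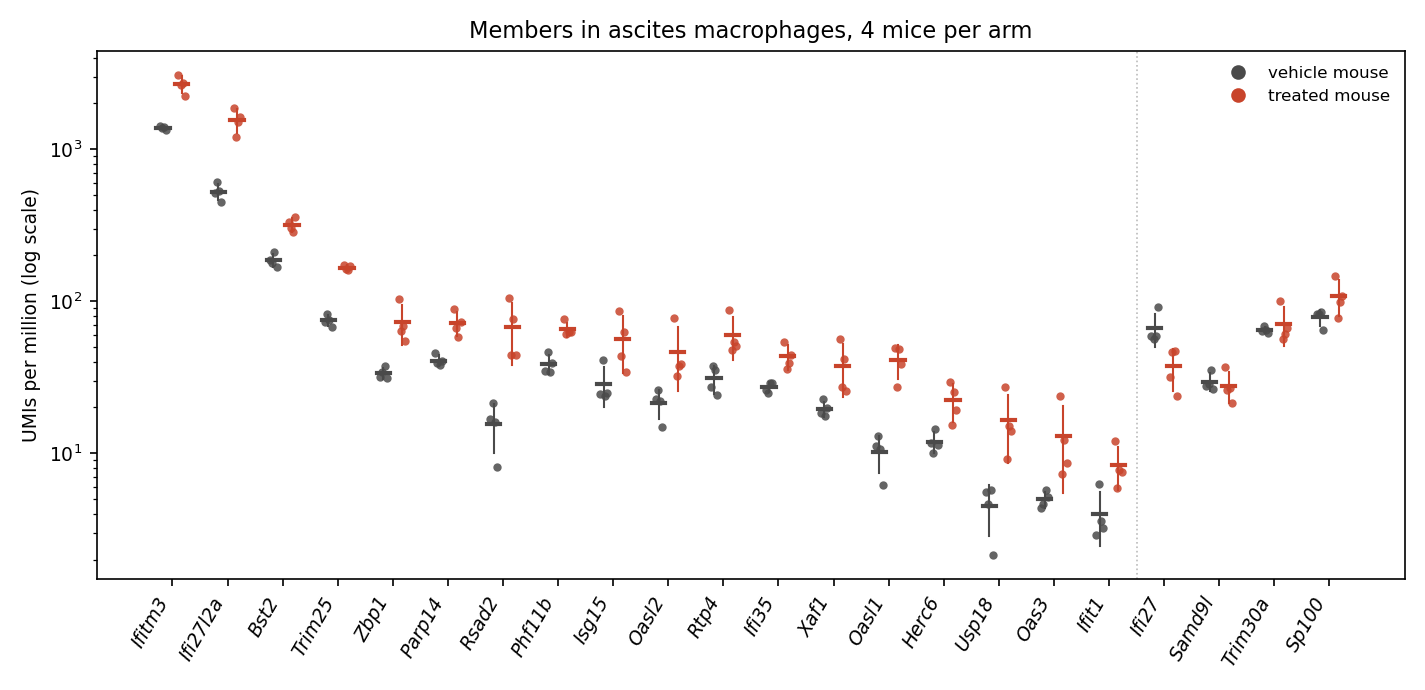
Level of 22 members in ascites macrophages (CPM within the class, log axis), 1 point per mouse, vehicle and treated arms side by side. Left of the dotted line are 18 of the 19 members that rose, and right of it are Ifi27, Samd9l, Trim30a and Sp100, so that Trim25 shows 4 treated mice at 160 to 172 above 4 vehicle mice at 67.7 to 82.3 and Ifi27 shows the opposite order.

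The treated and vehicle macrophages lay largely in different clusters. Where both arms had a mouse with at least 10 cells of a cluster, the summed members were higher in treated mice. Cluster 1 held 75.9% of the 696 treated macrophages and 3.70% of the 1163 vehicle ones, and cluster 3 held 1.29% and 43.3%. In cluster 1 the treated mice had 7032, 5858, 6087 and 5668 CPM over the members, and the 1 vehicle mouse with at least 10 cells there, mouse 3, had 3037. In cluster 3 vehicle mice had 3128, 3106, 3296 and 3050. In cluster 7, marked by the monocyte receptor gene Ccr2, treated mice 1 and 3 were at 9789 and 6250 and the vehicle mice at 4077, 3316, 3329 and 4072. In cluster 14 treated mouse 2 was at 4050 and vehicle mice at 3327, 2803, 2716 and 2155. In clusters 1, 7 and 14 each treated value given was above every vehicle value given, but these clusters offered only 1 or 2 mice in one of the arms. Cluster 8 held 26.7% of vehicle and 3.59% of treated macrophages, and its treated mice had 8, 7, 9 and 1 cells, under that minimum. Treated mice there were at 6488, 3650, 4596 and 7606 and vehicle mice at 3166, 3977, 3372 and 3131, so the arms overlapped. The clusters were drawn from other transcripts of the same cells, with the members left out, and these values are a description with no test. With macrophages of cluster 3 left out, 13 members rose and none fell, and with those of cluster 7 left out, 19 rose and 1 fell. The shares of all genes called in these refits are not given here.

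**Figure D3:**
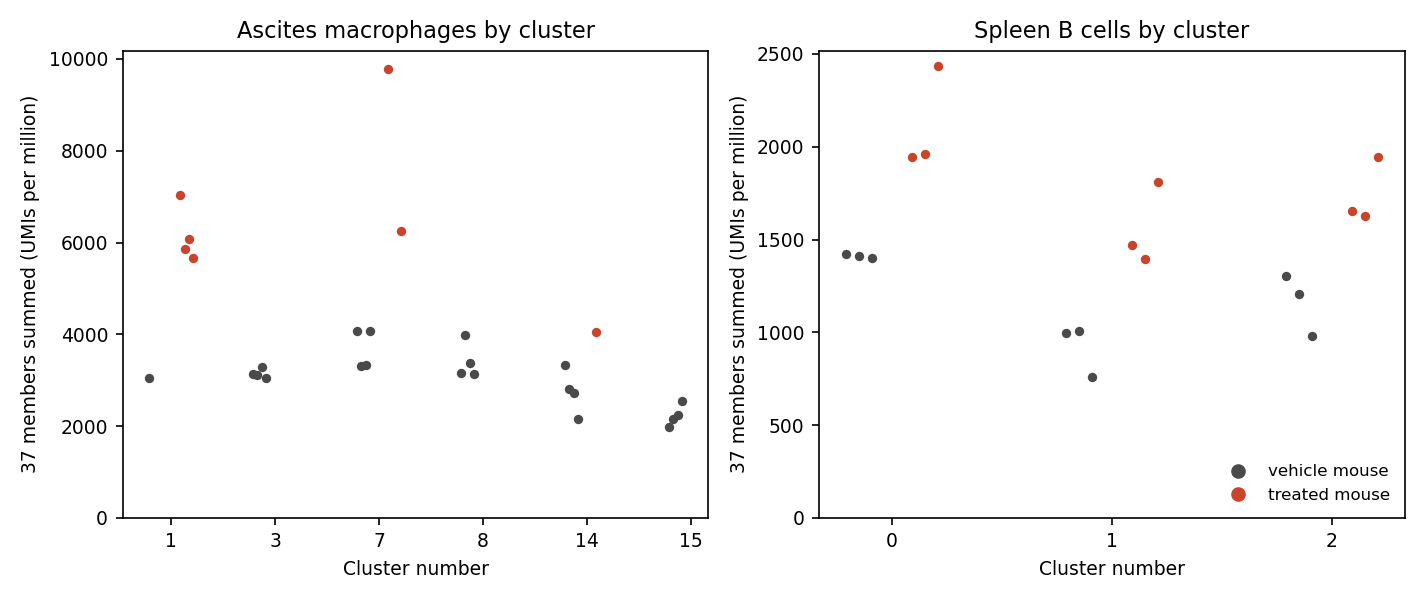
Summed CPM of the members for each mouse with at least 10 cells of a cluster (points), in the main clusters of ascites macrophages and spleen B cells. In macrophage cluster 1 the treated mice lie at 5668 to 7032 and the vehicle mouse at 3037, and in spleen B cell cluster 0 treated mice lie at 1947 to 2434 against 1399 to 1420.05.

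Classical monocytes of ascites were tested in the 2 vehicle and 4 treated mice with enough cells. Of 20 members tested, 6 rose and none fell, against 1.49% of 4018 genes that rose and 1.24% that fell, and the median log2 change was 1.82 over the members and -0.01 over all genes. The counts rest on vehicle mice 1 and 3 alone, and a member could pass the low-count filter through its treated mice, so the median is a description of the members tested. Rtp4 was at 5.54 and 17.4 in vehicle and 182, 82.4, 77.1 and 89.6 in treated mice (log2 change 3.02, SE 0.53, adjusted p = 0.00225). Ifi27l2a went from 565 and 486 to 3971, 2658, 2125 and 2105 (2.38, SE 0.287, adjusted p = 0.00228). Every treated mouse was above both vehicle mice in these genes. Bst2 went from 111 and 72.7 to 376, 358, 326 and 224 (1.87, SE 0.28, adjusted p = 0.000286). Parp14 went from 22.2 and 29.1 to 149, 65.9, 81.4 and 94.0 (1.89, SE 0.427, adjusted p = 0.0141). Those arms were separate as well. Ifitm3 (0.79, adjusted p = 0.00198) and Sp100 (1.05, adjusted p = 0.0437) also rose. Isg15 had a log2 difference of 3.13 (adjusted p = 0.056), from 6 UMIs in vehicle mice and 109 in treated mice. With 1 vehicle mouse left in the fit, whose spread is then assumed from the treated mice, Ifi27l2a was at 2.49 (adjusted p = 0.0525) without mouse 1 and 2.27 (adjusted p = 0.132) without mouse 3. Parp14 was lost without vehicle mouse 3 (adjusted p = 0.0527), and Sp100 without vehicle mouse 1 or 3 or treated mouse 1, 3 or 4 (0.0833 to 0.136). The class is marker-gated and small, and its summed monocyte markers were 7103 to 7845 CPM in vehicle and 3897 to 5339 in treated mice, beside 5916 to 9781 and 5291 to 8859 for macrophage markers. Each cell was also thinned to 2000 UMIs, and the minimum of 20 cells was dropped there. Monocytes then averaged 7.10, 9.79, 7.91 and 8.87 member UMIs in vehicle and 19.8, 17, 13.1 and 13.2 in treated mice, which did not overlap. Vehicle mice 2 and 4 entered with only 14 and 15 cells.

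Dendritic cells of ascites shared Ifi27l2a and Trim25 with macrophages. In cDC2, 6 of 22 tested members rose and none fell (4.9% and 6.57% of all genes), with a median of 0.50 over the members. Marker lists that separated the arms in cDC2 were non-classical monocyte (332 to 434 CPM in vehicle, 193 to 284 in treated mice), cDC1 (305 to 363 and 264 to 299), pDC (3.55 to 16.03 and 0 to 1.51) and ILC (36.7 to 41.9 and 75.5 to 126), and their part was not tested. Ifi27l2a was at 250, 206, 204 and 248 in vehicle and 971, 782, 573 and 591 in treated mice (log2 change 1.70, SE 0.148, adjusted p = 3.65e-08). Trim25 went from 61.6, 46.5, 64.7 and 67.7 to 122, 145, 118 and 116 (1.07, SE 0.164, adjusted p = 1.43e-05). Neither overlapped between arms. Ifitm3 went from 1632, 1635, 1611 and 1980 to 2884, 2681, 2250 and 2358 (0.57, adjusted p = 3.16e-05), and Sp100 from 112, 121, 83.3 and 120 to 184, 153, 149 and 140 (0.55, adjusted p = 0.0117), again without overlap. Bst2 (0.51, adjusted p = 0.0177) and Zbp1 (1.01, adjusted p = 0.0334) rose with overlapping arms. For Zbp1 treated mice 1 and 2 were at 65.5 and 48.8 and treated mice 3 and 4 at 21.5 and 18.9, the latter within the vehicle range of 16.7 to 23.5. Both calls were lost without vehicle mouse 1, 2 or 3 or treated mouse 1 or 2 (adjusted p 0.0528 to 0.227), and Sp100 without vehicle mouse 3 (0.102).

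In cDC1, which cross-present antigen to CD8 T cells, 5 of 21 tested members rose and 1 fell (8.51% and 9.03% of all genes), with a median log2 change of 0.25 over the members. Marker lists moved with treatment in this class without overlap: cDC1 (3492 to 4060 CPM in vehicle, 2616 to 2840 in treated mice), classical monocyte (637 to 1452 and 295 to 626), non-classical monocyte (176 to 275 and 108 to 167), macrophage (769 to 965 and 612 to 764) and pDC (19.4 to 27.1 and 5.68 to 11.6). Their part in the members' changes was not tested. Ifi27l2a was at 101, 98.3, 75.7 and 77.2 in vehicle and 356, 237, 274 and 363 in treated mice (log2 change 1.79, SE 0.14, adjusted p = 1.1e-08), without overlap. Trim25 (0.72, adjusted p = 0.000233), Bst2 (0.39, adjusted p = 0.0166), Ifi27 (1.03, adjusted p = 0.0274) and Herc6 (0.90, adjusted p = 0.0471) rose. Ifi27, which fell in macrophages, was at 3.42, 9.12, 6.58 and 5.01 in vehicle and 13.5, 13, 10.2 and 9.41 in treated cDC1, low levels that did not overlap. That call was lost without vehicle mouse 1 or 4 or treated mouse 1 or 2 (adjusted p 0.0647 to 0.171), that of Bst2 without vehicle mouse 4 or treated mouse 1 (0.088 and 0.0971), and that of Herc6 without vehicle mouse 1 or 4 or treated mouse 1, 2 or 4 (0.0754 to 0.236). Samd9l fell, from 54.8, 60.8, 35.1 and 57.9 to 35.4, 15.5, 24.2 and 27.4 (-1.07, SE 0.201, adjusted p = 0.000242), with treated mouse 1 just above vehicle mouse 3. In migratory dendritic cells, which carry antigen to lymph nodes, 3 of 13 tested members rose and none fell (5.64% and 4.77% of all genes). Trim25 went from 108, 87.2, 38.02 and 67.3 to 179, 199, 222 and 207 (1.43, adjusted p = 2.83e-05). Ifi27l2a (1.21, adjusted p = 0.000612) and Sp100 (0.74, adjusted p = 0.0493) also rose, the former without overlap, and the call of Sp100 was lost without vehicle mouse 2, 3 or 4 or treated mouse 1, 3 or 4 (0.0651 to 0.174).

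In ascites B cells 3 of 16 tested members rose and none fell (3.69% and 4.98% of all genes). Trim25 was at 95.4, 110, 94.2 and 107 in vehicle and 188, 173, 181 and 169 in treated mice (log2 change 0.80, SE 0.141, adjusted p = 4.64e-05). Ifi27l2a went from 171, 141, 133 and 214 to 477, 589, 328 and 324 (1.29, SE 0.223, adjusted p = 0.00482). The arms were separate in both genes. Trim30a went from 51.9, 72.5, 45.5 and 61.8 to 82.2, 55.9, 105 and 92.1 (0.56, adjusted p = 0.0469), with treated mouse 2 inside the vehicle range, and was lost without vehicle mouse 1 or 3 or treated mouse 1, 3 or 4 (adjusted p 0.0799 to 0.222). These cells also held macrophage markers, 2341 to 3890 CPM in vehicle and 2571 to 3303 in treated mice. Other marker lists separated the arms: non-classical monocyte (625 to 741 in vehicle, 338 to 474 in treated mice), cDC1 (502 to 600 and 351 to 452), plasma cell (338 to 638 and 178 to 315), pDC (8.04 to 18.5 and 0 to 6.77), B cell (4747 to 5267 and 4349 to 4673) and, in the other direction, migratory DC (294 to 342 and 430 to 524). Cluster 13 held 150 of 826 vehicle B cells and 9 of 376 treated ones. The part of these differences in the members' levels, and in the terms below that compare other classes with B cells, was not tested. In neutrophils, from 4 vehicle and 2 treated mice, 1 of 7 tested members rose and none fell (1.67% and 0.667% of all genes). That was Ifi27l2a, at 206, 253, 399 and 644 in vehicle and 1151 and 1398 in treated mice (1.89, SE 0.354, adjusted p = 0.00802), and the call was lost without treated mouse 2 (adjusted p = 0.238), a fit in which the 1 remaining treated mouse is assumed to vary like the vehicle mice.

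In ascites T cells none of 18 tested members passed edgeR's test (0.368% of all genes rose and 0.263% fell), 6 had an unadjusted p under 0.05, and DESeq2 called 0. The summed members were 1441, 1539, 1187 and 1408 in vehicle mice and 2217, 1783, 1748 and 1475 in treated mice, with treated mouse 4 inside the vehicle range. Ifi27l2a was at 204, 426, 257 and 288 in vehicle and 791, 439, 569 and 306 in treated T cells (log2 difference 0.83, SE 0.324, adjusted p = 0.419). In the CD8 T cells among them, from 3 mice per arm, none of 11 tested members passed (0% of all genes rose or fell). By the same edgeR fit 1 had an unadjusted p under 0.05, and DESeq2 called 0.

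**Figure D4:**
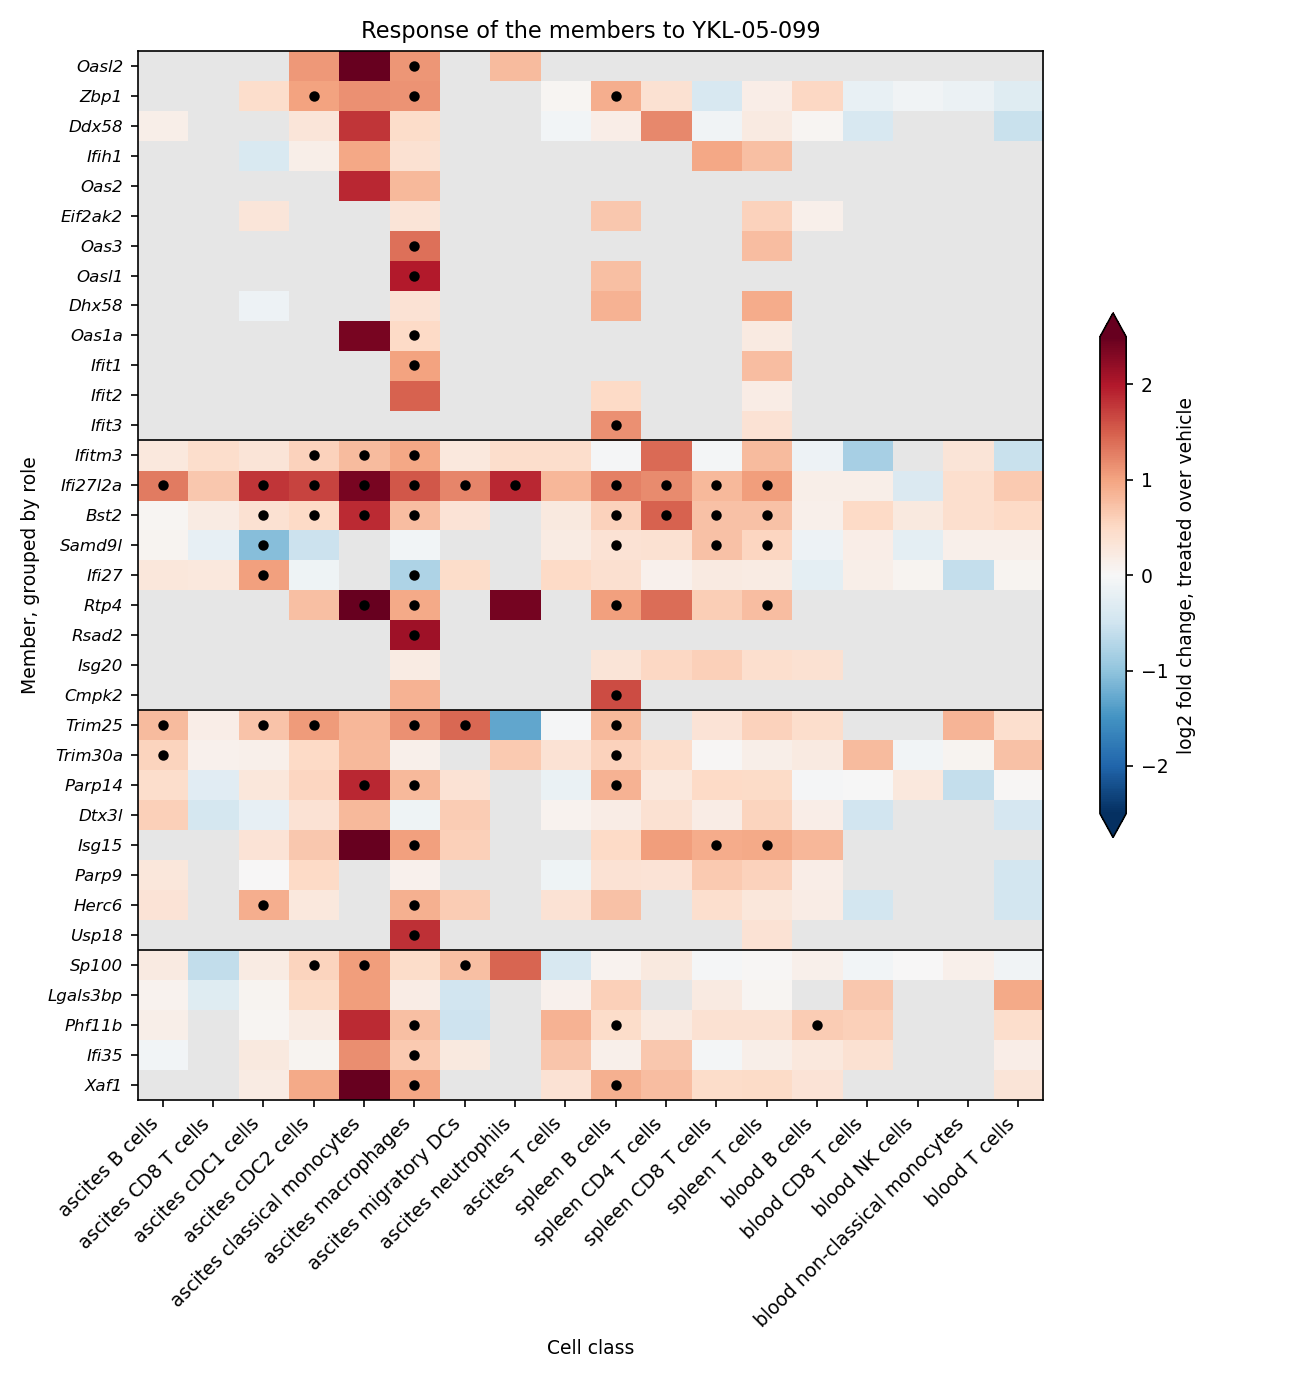
Log2 change, treated over vehicle, of each member (lines, grouped by role) in 18 combinations of class and tissue (columns), with the colour limited at 2.5 in either direction, black dots on members that passed the test and grey where a member was not tested. Ifi27l2a carries dots in 7 of 9 ascites classes and all 4 spleen classes and none in blood. The columns with the most dots are ascites macrophages and, after them, spleen B cells.

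Across the ascites classes, Ifi27l2a rose in 7 of the 9 where it was tested, Trim25 in 5 of 9, Bst2 in 4 of 8, and Ifitm3 and Sp100 in 3 of 9 each. A call in one class and not in another does not show that the responses differ, so the class-by-treatment term was tested with the mouse as a block. Macrophages against B cells gave 3 of 32 members that differed, 2 with the larger log2 change in macrophages and 1 with the smaller (3.13% and 2.95% of all genes). Ifitm3 changed by 0.70 more in macrophages (SE 0.136, adjusted p = 0.000787). In B cells its levels were 187, 149, 167 and 162 in vehicle and 265, 132, 201 and 176 in treated mice, which overlap. The term for Ifi27 was -1.22 (SE 0.327, adjusted p = 0.0219), with B cells at 29.5, 32.7, 35.7 and 45.7 in vehicle and 58.7, 25.4, 25.5 and 58.0 in treated mice. Without treated mouse 1 it was -0.97 (adjusted p = 0.146) and without treated mouse 4 -0.77 (adjusted p = 0.235). Rsad2 had a term of 3.22 (SE 0.811, adjusted p = 0.0128), which rests on few B cell counts, 19 UMIs in vehicle and 4 in treated mice, and was 2.45 (adjusted p = 0.0777) without treated mouse 1. For Ifi27l2a the term was 0.25 (adjusted p = 0.792) and for Trim25 0.35 (adjusted p = 0.247).

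Other pairs of classes differed in single members. Classical monocytes against B cells gave 1 of 29 (0.349% of all genes larger in monocytes, 0.166% smaller), namely Ifi27l2a, which changed by 0.92 more in monocytes (SE 0.22, adjusted p = 0.0394). The call was lost without treated mouse 1 (0.76, adjusted p = 0.169) and without treated mouse 4 (0.91, adjusted p = 0.128). In cDC1 against B cells, 1 of 23 differed (2.66% and 2.06% of all genes), Samd9l by -1.12 (SE 0.27, adjusted p = 0.00616). B cells held Samd9l at 107, 124, 122 and 102 in vehicle and 127, 183, 79.2 and 106 in treated mice, and without treated mouse 2 the term was -0.75 (adjusted p = 0.0674). In cDC2 against B cells 1 of 23 differed (2.08% and 1.71% of all genes). It was Eif2ak2, by 2.06 (SE 0.59, adjusted p = 0.0254), with cDC2 at 11.5, 15.1, 3.92 and 5.81 in vehicle and 12.5, 22.8, 17.9 and 37.8 in treated mice. B cells were at 15.4, 22.8, 13 and 20.8 in vehicle and 11.7, 5.08, 14.1 and 10.2 in treated mice, so the arms overlapped in both classes. Its counts were low, 28 and 46 UMIs in vehicle and treated cDC2 and 75 and 17 in B cells, and it was not tested within either class. The call was lost without vehicle mouse 3 or 4 or treated mouse 2 or 4 (adjusted p 0.068 to 0.263). B cells against T cells gave none of 19 by edgeR (0.556% and 0.585% of all genes), with 2 at an unadjusted p under 0.05. That interaction term was not fitted with DESeq2. Trim25 had a term of 0.80 there (adjusted p = 0.173).

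Of 27 members tested in spleen B cells, 12 rose and none fell, against 2.57% of 8728 genes that rose and 2.11% that fell. The median log2 change was 0.58 over the members, and for 16 every treated mouse was above every vehicle mouse. The share of all genes without overlap is not given here, so the 16 describe the members only. The sums were 1168, 1117 and 977 CPM in vehicle mice 1 to 3 and 1549, 1513 and 1908 in treated mice 2 to 4. The arms were separate. Ifi27l2a was at 297, 260 and 229 in vehicle and 551, 595 and 737 in treated B cells (1.25, SE 0.132, adjusted p = 0.000936). Trim25 went from 35.9, 32.9 and 37.1 to 59.7, 59.7 and 65.0 (0.80, SE 0.127, adjusted p = 3.28e-05). Parp14 went from 28.3, 36.0 and 27.2 to 51.0, 46.5 and 71.4 (0.86, SE 0.165, adjusted p = 0.0011). None of these genes overlapped between arms. Zbp1 (0.91, adjusted p = 0.00132), Trim30a (0.57, adjusted p = 0.00215), Xaf1 (0.89, adjusted p = 0.00892), Bst2 (0.58, adjusted p = 0.00833) and Phf11b (0.47, adjusted p = 0.0466) rose without overlap, Samd9l (0.36, adjusted p = 0.0499) with it. The low-count members Ifit3 (1.15, adjusted p = 0.0174), Cmpk2 (1.63, adjusted p = 0.0242) and Rtp4 (1.02, adjusted p = 0.033) rose as well.

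The calls in spleen B cells depended on which mice and cells entered. Leaving out vehicle mouse 3 left 6, leaving out treated mouse 4 left 7, and the other mice 8 to 11. Ifi27l2a, Trim25, Parp14, Zbp1 and Trim30a stayed called in all 6 such fits. With all mice DESeq2's Wald test called 5. With at most 5% mitochondrial UMIs, which kept 220 of 1836 spleen B cells, none passed. For none of these refits is the share of all genes called given here, so the counts describe the members only. The summed members were higher in treated mice within each of the 3 main B cell clusters. In cluster 0 they were 1399 to 1420.05 in vehicle and 1947 to 2434 in treated mice, in cluster 1 757 to 1004 and 1395 to 1808, and in cluster 2 981 to 1304 and 1627 to 1947. Macrophage markers in spleen B cells were 621 to 908 CPM in vehicle and 508 to 572 in treated mice, which separated the arms. Classical monocyte markers were 1356 to 1526 and 1502 to 1751, and pDC markers 9.92 to 12.4 and 11.96 to 14.0, both with overlap. Other marker lists are not given here for this class, so these values do not show that the arms were alike in them. The part of marker RNA of other classes in the members' levels was not tested.

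Isg15 was among the members that rose in spleen T cells. Of 30 members tested there, 5 rose and none fell (0.656% and 1.28% of all genes). The log2 difference was above 0 for all 30, where it was for 50.1% of all genes tested, and the members' median was 0.48. Summed members were 1562, 1488 and 1494 in vehicle and 2445, 2504 and 2312 in treated mice. Ifi27l2a went from 427, 424 and 388 to 961, 831 and 763 (log2 change 1.04, SE 0.0743, adjusted p = 4.02e-14). Isg15 went from 61.4, 70.1 and 72.4 to 106, 127 and 155 (0.94, SE 0.128, adjusted p = 2.12e-06). The arms of both were separate. Bst2 went from 99.4, 68.0 and 78.7 to 106, 160 and 146 (0.74, adjusted p = 0.008) and Samd9l from 87.7, 92.0 and 88.4 to 117, 144 and 126 (0.53, adjusted p = 0.00287), and Rtp4 rose by 0.77 (adjusted p = 0.026). Bst2 was lost without vehicle mouse 3 or treated mouse 4 (0.103 and 0.0828), Samd9l without treated mouse 3 (0.0513) and Rtp4 without vehicle mouse 2 or 3 or treated mouse 3 or 4 (0.0748 to 0.229). In the CD4 subset 2 of 18 rose and none fell (0.106% and 0.053% of all genes): Ifi27l2a from 812, 817 and 668 to 1883, 1569 and 1750 (1.18, adjusted p = 5.45e-07) and Bst2 from 84.4, 55.9 and 66.8 to 140, 232 and 214 (1.48, adjusted p = 0.000711). In the CD8 subset 4 of 22 rose and none fell (0.364% and 0.433% of all genes): Ifi27l2a (0.81, adjusted p = 4.55e-06), Samd9l (0.74, adjusted p = 0.00951), Bst2 (0.72, adjusted p = 0.0205) and Isg15 (0.93, adjusted p = 0.0234). Of these, Ifi27l2a kept its call whichever mouse was left out. Samd9l lost it without vehicle mouse 1 or 2 (0.179 and 0.0938), Bst2 and Isg15 without vehicle mouse 1 or 2 or treated mouse 3 or 4 (0.0838 to 0.325). Both subsets are part of the T cell class, so these are not separate cells. CD8 cells were 320 of 681 vehicle and 230 of 644 treated spleen T cells. In vehicle mice the summed members averaged 1872 CPM in the CD4 and 1288 in the CD8 subset. Marker lists that separated the arms were CD8 T cell (462 to 528 CPM in vehicle, 360 to 412 in treated mice), classical monocyte (726 to 807 and 631 to 721) and erythroid (150 to 221 and 120 to 149). Their part in the class values was not tested.

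In blood 1 of 20 tested members rose in B cells (0.613% of all genes rose, 0.4% fell), namely Phf11b, from 28.4, 36.4 and 35.1 to 52.4, 46.3 and 54.6 (log2 change 0.63, SE 0.17, adjusted p = 0.0363). The call was lost under 7 of the other settings, DESeq2 and a stricter hashtag rule among them, and without vehicle mouse 1, vehicle mouse 3, treated mouse 2 or treated mouse 4. Ifi27l2a was at 465, 567 and 622 in vehicle and 609, 654 and 577 in treated blood B cells (0.14, adjusted p = 0.502), which overlap. Trim25 was at 61.7, 61.7 and 59.2 in vehicle and 77.7, 88.8 and 81.6 in treated mice, separate arms that missed the threshold (0.44, adjusted p = 0.0898). In blood T cells none of 18 passed edgeR's test (0.0868% of all genes rose and 0.0434% fell), with 4 at an unadjusted p under 0.05, and DESeq2 called 0. There Ifi27l2a was at 372, 427 and 287 in vehicle and 724, 490 and 497 in treated mice (0.65, adjusted p = 0.378), without overlap. The edgeR counts were also 0 of 15 in blood CD8 T cells (0.0556% of all genes rose), 0 of 8 in NK cells (0.288% rose and 0.108% fell) and 0 of 10 in non-classical monocytes (0.348% rose and 0.232% fell). At an unadjusted p under 0.05 these were 3, 0 and 2 members, and DESeq2 called 0 in each.

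Whether B cells responded differently by tissue was tested with the tissue-by-treatment term, taking an equal arm and number as the same animal. Each B cell term rests on 3 vehicle and 3 treated mice. Spleen and blood share a droplet library, while ascites was a library of its own, so that tissue and library cannot be told apart for ascites. Between spleen and blood, 3 of 26 members differed, all with the larger change in spleen (0.423% of all genes larger in spleen, 0.541% smaller). Parp14 changed by 0.94 more in spleen (SE 0.211, adjusted p = 0.00411). In blood its levels were 52.8, 64.5 and 55.7 in vehicle and 64.6, 43.4 and 57.9 in treated mice, which overlap. Samd9l differed by 0.50 (SE 0.134, adjusted p = 0.0357), with blood at 214, 218 and 215 in vehicle and 209, 184 and 199 in treated mice. Ifi27 differed by 0.69 (SE 0.176, adjusted p = 0.0234), with spleen at 62.3, 76.2 and 44.6 against 86.3, 69.7 and 88.6 and blood at 70.6, 91.6 and 78.4 against 73.4, 56.9 and 69.7. Within each tissue Ifi27 did not pass its own test. Parp14 lost its call without treated mouse 4 (0.75, adjusted p = 0.111). Ifi27 lost it without vehicle mouse 3 or treated mouse 3 or 4 (adjusted p 0.0676 to 0.348), Samd9l without vehicle mouse 1 or 3 or treated mouse 3 or 4 (0.0573 to 0.372), and Ifi27 and Samd9l lost it without the mouse block. Vehicle blood B cells already held 214 to 218 of Samd9l and 465 to 622 of Ifi27l2a, where vehicle spleen B cells held 85.6 to 116 and 229 to 297, but that comparison between tissues was not tested.

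Between ascites and blood, 1 of 20 members differed in B cells (0.852% of all genes larger in ascites, 2.35% smaller), Ifi27l2a by 1.20 (SE 0.268, adjusted p = 0.0454). Without the mouse block no member passed. Between spleen and blood the term for Ifi27l2a was 1.09 (adjusted p = 0.267). Between ascites and spleen none of 24 passed by edgeR (0.801% and 2.42% of all genes), with 3 at an unadjusted p under 0.05. For CD8 T cells none passed between ascites and spleen (of 20, 0.0166% and 0.117% of all genes), ascites and blood (of 15, 0.0245% and 0.0736%) or spleen and blood (of 20, 0.0369% and 0.0553%), with 2, 1 and 4 at an unadjusted p under 0.05 by edgeR. The 2 CD8 T cell terms with ascites rest on 2 vehicle and 2 treated mice, and the term between spleen and blood on 3 and 3. DESeq2 was not run on these tissue terms.

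**Figure D5:**
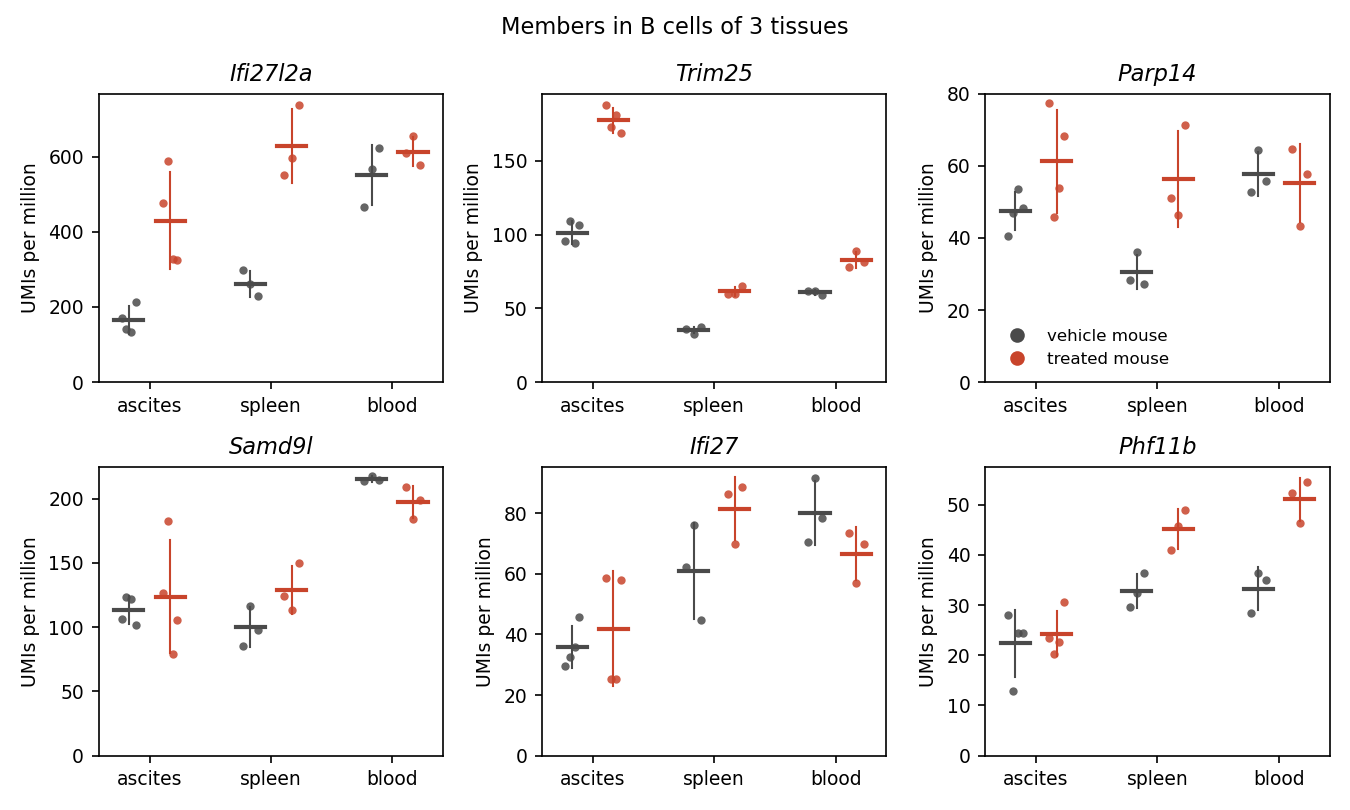
Level of 6 members in B cells of ascites, spleen and blood (CPM within the class), 1 point per mouse by arm. Ifi27l2a and Trim25 are higher in every treated mouse of ascites and spleen, while in blood Ifi27l2a overlaps between arms and vehicle mice already lie at 465 to 622.

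The signalling genes of the pathway were read from a list of 36 genes (ligands, receptor, kinases, transcription factors, sensors and inhibitors), fitted in the same tables. In macrophages 4 of 20 tested rose and 3 fell, with a list median of 0.10, beside the 10.4% and 11% of all genes given above. Those that rose were transcription factors. Stat2 was at 17.4 to 19.0 in vehicle and 35.4 to 65.2 in treated mice (log2 change 1.39, SE 0.171, adjusted p = 6.07e-05). Irf7, which drives interferon alpha transcription, was at 18.2 to 29.6 and 61.8 to 148 (1.90, SE 0.297, adjusted p = 0.0034). The arms did not overlap in either gene. Irf9 (0.48, adjusted p = 0.0218) and Irf1 (0.55, adjusted p = 0.0119) rose too. The receptor and its kinases did not pass, with Ifnar1 at 0.10 (adjusted p = 0.499), Ifnar2 at -0.25 (adjusted p = 0.063), Jak1 at -0.17 (adjusted p = 0.22) and Tyk2 at 0.13 (adjusted p = 0.599). Those that fell were sensors: Tlr7, an endosomal receptor for single-stranded RNA, from 59.95 to 69.4 in vehicle to 20.4 to 31.2 in treated mice (-1.32, adjusted p = 1.13e-05), Tlr4 (-0.99, adjusted p = 0.000127) and Tmem173, which encodes STING (-0.71, adjusted p = 0.00552).

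Irf9 also rose in ascites monocytes, ascites B cells and spleen B cells. In ascites monocytes 3 of 13 pathway genes rose (1.49% of all genes), Stat2 by 2.56 (adjusted p = 0.0119) and Irf9 by 1.68 (adjusted p = 0.0344) among them. In ascites B cells 5 of 15 rose (3.69% of all genes), among them Irf9 by 1.10 (adjusted p = 0.00373) and Irf7 by 1.26 (adjusted p = 0.00816). In spleen B cells 3 of 20 rose (2.57% of all genes), with Stat2 at 0.79 (adjusted p = 0.0162) and Irf9 at 0.74 (adjusted p = 0.00115). In cDC1 1 of 17 rose and 4 fell, where 8.51% of all genes rose and 9.03% fell, the most strongly Tmem173 (-1.54, adjusted p = 3.03e-10) and Tlr3, an endosomal receptor for double-stranded RNA (-1.21, adjusted p = 1.39e-08). In cDC2 2 of 13 rose, Stat2 (0.89, adjusted p = 0.0231) and Ifnar1 (0.60, adjusted p = 0.0183), and 2 fell, where 4.9% of all genes rose and 6.57% fell. In spleen T cells 1 of 17 fell and none rose (1.28% and 0.656% of all genes), Socs3, an inhibitor of cytokine signalling, by -0.73 (adjusted p = 0.0193). In blood none of 15 tested pathway genes passed edgeR's test in B cells, with 3 at an unadjusted p under 0.05, and none passed in the other blood classes (1 of 11 at an unadjusted p under 0.05 in T cells, 0 of 9 in CD8 T cells, 0 of 8 in NK cells and 0 of 8 in non-classical monocytes). DESeq2 was not run on this list, and Irf9 in blood B cells was at 0.16 (adjusted p = 0.84).

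A list of 15 genes known mainly as targets of interferon gamma was set beside the members. In macrophages 2 of 11 tested rose and none fell, where 10.4% of all genes rose and 11% fell: Gbp4, a guanylate-binding GTPase, by 1.59 and Irgm1, an immunity-related GTPase, by 0.98. In spleen B cells 3 of 10 rose (2.57% of all genes), Gbp3 (0.67), Gbp4 (0.59) and Gbp5 (0.77). In migratory dendritic cells 2 of 6 rose and 1 fell (5.64% and 4.77% of all genes), and those that rose were Gbp2 (1.39) and Gbp3 (1.43). In ascites B cells 1 of 7 rose and 2 fell (3.69% and 4.98% of all genes), and Gbp3 (1.08, adjusted p = 0.00477) was the one that rose. Ciita, the master regulator of MHC class II genes, fell in ascites B cells (-1.32), cDC1 (-1.60), cDC2 (-1.55) and migratory dendritic cells (-2.37). It also fell in blood B cells (-0.56). Cd274, the checkpoint ligand PD-L1, fell in ascites B cells (-1.39) and rose in cDC1 (1.38), so the list did not move one way.

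Transcripts of the interferons themselves were few. No UMI of an Ifna gene was seen in 3499 vehicle or 2782 treated ascites cells. Over cells pooled across mice, and for counting error alone, this allows a share of cells with a UMI of up to 0.0857% and 0.108%. The spread between mice is not in these limits. Spleen held 4 such UMIs in 1 vehicle cell and 16 in 3 treated cells. Ifnb1 had 44 UMIs in 32 vehicle and 61 UMIs in 31 treated ascites cells, and by mouse 0.482 to 2.25 CPM in vehicle and 0.596 to 4.83 in treated mice, which overlap. Ifng, the type II interferon, had 251 UMIs in vehicle and 396 in treated ascites cells, 3.28 to 9.27 and 7.08 to 17.7 CPM by mouse, again with overlap. In spleen Ifng was at 8.58 to 23.1 and 15.9 to 23.5. Plasmacytoid dendritic cells, known as the main producers of interferon alpha, numbered 16, 7, 8 and 1 in ascites of vehicle mice and 1, 1, 2 and 0 in treated mice, and 7, 8 and 8 against 0, 3 and 1 in spleen. These counts were not tested, and whether the cells or mice differed in interferon protein was not measured.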

How the data were processed

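The authors deposited raw UMI counts of genes and of hashtag antibodies by barcode, made with Cell Ranger 6.1.1 on the mm10 genome, per the submitters' processing notes. Hashtag notes deposited beside them give the arm, mouse and tissue. The library was 10x 3′ chemistry v3.1 per the labels' protocols.

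Barcodes needed at least 200 genes, 500 UMIs and no more than 10% of UMIs from mitochondria (11112 in ascites, 11513 in spleen and blood). A cell was assigned to the hashtag holding at least 80% of at least 20 hashtag UMIs (6419 and 6741 cells). HTODemux (Seurat 5.3.0) calls 2354 and 1608 of these doublets, so it serves as an alternative. No doublet caller was run on transcripts. Mixed hashtags and cells positive for 2 marker lists were dropped. Cells with at least 1000 UMIs were gated on a marker-list score of at least 0.2 with a gap of 0.05 to the next class. This gate, the 1000-UMI minimum and the hashtag rule were chosen after the data were seen. Within a gap of 0.1 lay 99 of 1859 macrophages and 33 of 182 monocytes. Bst2 was kept out of the gate. Clusters came from scanpy 1.11.5 with leidenalg 0.10.2, made without the members.

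Counts were summed per mouse and class and tested with edgeR 4.0.16 in R 4.3.3 (TMM, filterByExpr, two-sided robust quasi-likelihood F test), for mice with at least 20 cells of the class and at least 2 mice per arm, with Benjamini-Hochberg adjustment over all genes tested and a threshold of 0.05. Differences between classes or tissues are interaction terms with the mouse as a block. The script was tested on simulated counts with known changes. Tissue terms could be fitted for B cells and CD8 T cells only. Sums over the members are CPM of the raw class total. Intervals and limits cover counting error only.

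The members and lists were chosen with earlier results of these data known, and a pattern already seen there is not independent support. A gene of the pathway list is not reported here and was left out of its counts. Named members are, per role, up to 4 that passed in the most ascites classes, those past the threshold in spleen or blood, and those past an interaction test. Other members given with values were chosen after their values were seen. Alternatives were HTODemux, a stricter hashtag rule, 5% mitochondrial UMIs, clusters as classes, thinning to 2000 UMIs, a minimum of 10 or 50 cells, omission of the low-count filter, DESeq2 1.42.0 (size factors and Wald test), a replicate block, leaving out each mouse and summing macrophages with monocytes. A 500-UMI minimum and the leaving out or isolating of single clusters were added after the data were seen.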

Additional observations from a re-analysis of the deposited data

Results flagged for a closer look

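In 4 of 46 groups of 4 ascites mice tested, 1 mouse stood apart by Dixon's criterion at the 95% level, which chance passes in about 1 of 20 groups. The groups were the named members in macrophages and the summed members of each ascites class with 4 mice in the arm. All 4 flags were for single members, which were tested in macrophages only. The lowest vehicle value of Sp100 was 64.3 CPM, in mouse 4. The highest treated value of Phf11b was 75.9 and that of Oasl2 was 77.8, both in mouse 1. The highest vehicle value of Ifi27 was 91.0, in mouse 4.

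The response of 6 member and class pairs differed between ascites classes by the interaction test. Against B cells, macrophages differed for Ifitm3 (0.70 on the log2 scale), Rsad2 (3.22) and Ifi27 (-1.22), classical monocytes for Ifi27l2a (0.92), cDC1 for Samd9l (-1.12) and cDC2 for Eif2ak2 (2.06). Between tissues 4 differences passed, all in B cells. These were Ifi27l2a between ascites and blood (1.20), and Parp14 (0.94), Ifi27 (0.69) and Samd9l (0.50) between spleen and blood.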

How the results depend on the processing

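Of 1415 recomputed values of single named members, 1161 kept their direction and side of the threshold, 253 lost the threshold and 1 reversed: Samd9l in spleen B cells was -0.17 (adjusted p = 0.919 by edgeR) at most 5% mitochondrial UMIs, a filter that kept 220 of 1836 of those cells. The cause was not tested for the other changes. Counts of members called, in either direction, that moved by over 1.5 times were as follows, without the shares of all genes called under each setting. Cells thinned to equal UMIs gave 10 in macrophages, 2 in monocytes, 2 in cDC1, 3 in cDC2, 1 in migratory DCs, 1 in ascites B cells, 3 in spleen B cells, 3 in spleen T cells, 1 in spleen CD4 T cells, 1 in spleen CD8 T cells and 0 in blood B cells. At most 5% mitochondrial UMIs gave 1 in ascites B cells, 0 in spleen B cells, 0 in spleen CD4 T cells, 1 in spleen CD8 T cells and 0 in blood B cells. HTODemux gave 2 in spleen CD8 T cells and 0 in blood B cells, 0 for cDC1 against B cells, 1 for B cells between ascites and spleen and 1 for CD8 T cells between spleen and blood, and the stricter hashtag rule gave 0 in blood B cells. DESeq2's Wald test gave 3 in cDC1, 5 in spleen B cells and 0 in blood B cells. Without the low-count filter there were 12 in cDC2, 15 in monocytes, 2 in neutrophils, 1 in ascites T cells, 4 in spleen CD4 T cells, 0 in blood B cells and 1 in blood T cells. Clusters as classes gave 19 in monocytes and 1 in blood T cells. At least 10 cells per mouse gave 3 in neutrophils, and at least 50 cells gave 2 for cDC1 against B cells. Without the cluster of most vehicle cells macrophages had 13, and the 3 spleen B cell clusters alone had 6, 3 and 3.

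Equal mouse numbers did not pair the arms: correlations of same-numbered deviations were 0.0058, 0.21, -0.27 and -0.067 in macrophages and -0.017 to 0.04 in B cells. A replicate block on the number gave 16 members in macrophages, 12 in monocytes, 2 in neutrophils, 7 in spleen B cells, 1 in spleen CD8 T cells and 0 in blood B cells. No mouse block in the tissue terms gave 0 for B cells between ascites and blood and 1 between spleen and blood. Leaving out each mouse gave 16 to 25 in macrophages, 3 to 11 in monocytes, 3 to 7 in cDC1, 0 to 1 in neutrophils, 0 to 2 in ascites T cells, 6 to 11 in spleen B cells, 3 to 8 in spleen T cells, 1 to 4 in spleen CD8 T cells, and 0 to 1 in blood B and blood T cells. For the interaction terms it gave 1 to 4 for macrophages against B cells, 0 to 1 for monocytes and for cDC2 against B cells, 0 to 1 for B cells between ascites and spleen, 1 to 3 between spleen and blood, and 0 to 1 for CD8 T cells between spleen and blood. None of the counts in this paragraph has the share of all genes called in its refit beside it, so they describe the members only. Small classes limit what could be tested, since Ifit3b and Ifi44 had too few UMIs in every class.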
